A study of Marmota monax with 203 samples.

Results

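The 35 genes described here are those whose symbols place them among the constitutive subunits of the proteasome: every symbol in the expression tables that begins with PSMA, PSMB, PSMC or PSMD and a digit, without the immunoproteasome subunits PSMB8, PSMB9 and PSMB10. They are 35 of the 17587 genes in the tables, and all 35 passed the filter on low counts at every week. The members were 7 subunits of the α ring, 4 structural and 3 catalytic subunits of the β ring, 6 ATPases and 3 other subunits of the base, 8 subunits of the lid and 3 chaperones that assemble the base. The remaining symbol, PSMC3IP, belongs to a meiotic recombination factor that is not a proteasome subunit and was kept only because its name matches. PSMA8 and PSMB11 were not among the symbols of the tables.

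The proteasome is the barrel-shaped protease that degrades ubiquitin-tagged proteins. Its core particle stacks rings of α subunits, which form the gate, on rings of β subunits, 3 of which carry the proteolytic sites. A regulatory particle caps the core: its lid removes ubiquitin, and the ATPases of its base unfold the substrate and thread it in. In cells exposed to interferon the catalytic β subunits can be exchanged for PSMB8, PSMB9 and PSMB10, which gives the immunoproteasome known for cutting peptides for presentation on MHC class I molecules.

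RNA-Seq was performed on liver biopsies of adult woodchucks (Marmota monax) that had been infected with woodchuck hepatitis virus (WHV) as neonates and were chronic carriers, so every group, placebo included, carried the virus. Animals were dosed subcutaneously with placebo or with woodchuck interferon-α (wIFN-α), 20 μg per dose at first (low dose) and 100 μg per dose later (high dose). Biopsies of 8 study weeks were compared: week -3 before treatment, weeks 0 and 3 at the low dose, weeks 7, 11 and 15 at the high dose, and weeks 19 and 23 after treatment had ended. The biopsies taken during treatment followed a dose by hours, and those of weeks 0 and 7 followed the first dose of each level. The groups of placebo and wIFN-α animals held 12 and 11 biopsies at weeks -3 and 0, 12 and 9 at weeks 3 and 7, 10 and 8 at week 11, 9 and 8 at week 15, 5 and 6 at week 19, and 9 and 6 at week 23. Both sexes were in each group. Animal M1004 of the wIFN-α group was left out, as in the study's own comparisons.

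The 149 biopsies held 12072840 to 84805845 assigned reads (median 28754894), of which the 35 members took 0.178% to 0.349%. Liver was checked by 12 hepatocyte genes, all of which had a median of at least 1 CPM, and the 5 interferon-stimulated genes MX1, ISG15, RSAD2, OAS1 and IFIT3 were higher with wIFN-α at all 5 treatment weeks (5 of 5 each, edgeR quasi-likelihood test). Several biopsies stood apart from their labels. The week -3 biopsies of placebo animal F1016 and wIFN-α animal F1018 held almost no hepatocyte RNA: the 12 hepatocyte genes summed to 493.4 and 318.2 CPM, against 50852 CPM or more in every other biopsy, and 15.2% and 15.1% of their reads came from 20 skeletal muscle genes. Their summed proteasome levels were 3592 and 3615 CPM, the highest of their groups at week -3. Skeletal muscle reads also exceeded 5% in F1021 at week 3 (12.6%), F1023 at week 0 (8.30%) and M1011 at week 3 (5.61%). The week 3 biopsy of wIFN-α animal F1013 lacked the interferon response, with ISG15 at 2.72 CPM against a group median of 818.6 CPM. All but 1 of the 15 titles of week 23 biopsies carry a letter T that the labels do not explain. The runs of the week 15 biopsy of placebo animal M1008, which share a barcode and were summed, differed from each other with a chi-square per degree of freedom of 136.9. Other pairs of runs of 1 biopsy that share a barcode differed by 1.24 to 2.54. Pairs with different barcodes differed by 3.66 to 4.75, apart from M1002 at week -3 (15.32) and F1022 at week 19 (31.45). Different wIFN-α animals differed by at least 57.78 at week -3 and 45.37 at week 19. Summed biopsies of different placebo animals at week 15 differed by 47.75 at the lowest and 121.4 at the median. The runs of M1008 thus differed about as much as biopsies of different animals. Whether both came from the same material was not tested. Without M1008 12 members passed at week 15. Without the biopsies over 5% skeletal muscle reads 15 members passed at week 0 and 10 at week 3, against 5373 of 14720 and 2985 of 14899 genes. PSMC5, PSMD12 and PSMD13 then no longer passed at week 0, and PSMD5 did. Without F1013 8 members passed at week 3, against 3375 of 15062 genes. For the members named most often, week 3 values are also given without F1013, and changes from week -3 without F1016 and F1018. Their week 0 levels include F1023.

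Per unit of length, the constitutive transcripts differed widely among themselves in the 81 placebo biopsies. Levels are given here as CPM, the gene's reads scaled to a common library size after normalization over all biopsies, divided by the transcript length in kilobases that the deposited RPKM values imply. Among the highest were the base ATPase PSMC3 with a median of 74.2 CPM per kb, the α subunit PSMA6 with 72.9 and the structural β subunit PSMB3 with 68.0. The catalytic subunits lay close together, PSMB6 at 64.5, PSMB7 at 63.2 and PSMB5 at 51.8 CPM per kb. Among the lowest were the deubiquitinase PSMD14 with 5.77, the base chaperones PSMD5 and PSMD10 with 5.52 and 3.54, and PSMC3IP with 2.03. By group, the median level per length was 63.2 for the catalytic and 42.5 for the structural β subunits, 42.9 for the ATPases and 40.9 for the α ring. It was 18.2 for the other base subunits, 16.9 for the lid and 5.52 for the base chaperones. PSMA2, which differed most between treatment groups, was at rank 31 of 35 with 7.32 CPM per kb. The implied lengths ran from 758 to 8948 bases, so an assembled transcript longer than the true mRNA would lower its gene's value. Between placebo biopsies the coefficient of variation of CPM ran from 9.52% for PSMB1 to 26.8% for PSMC1.

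**Figure D1:**
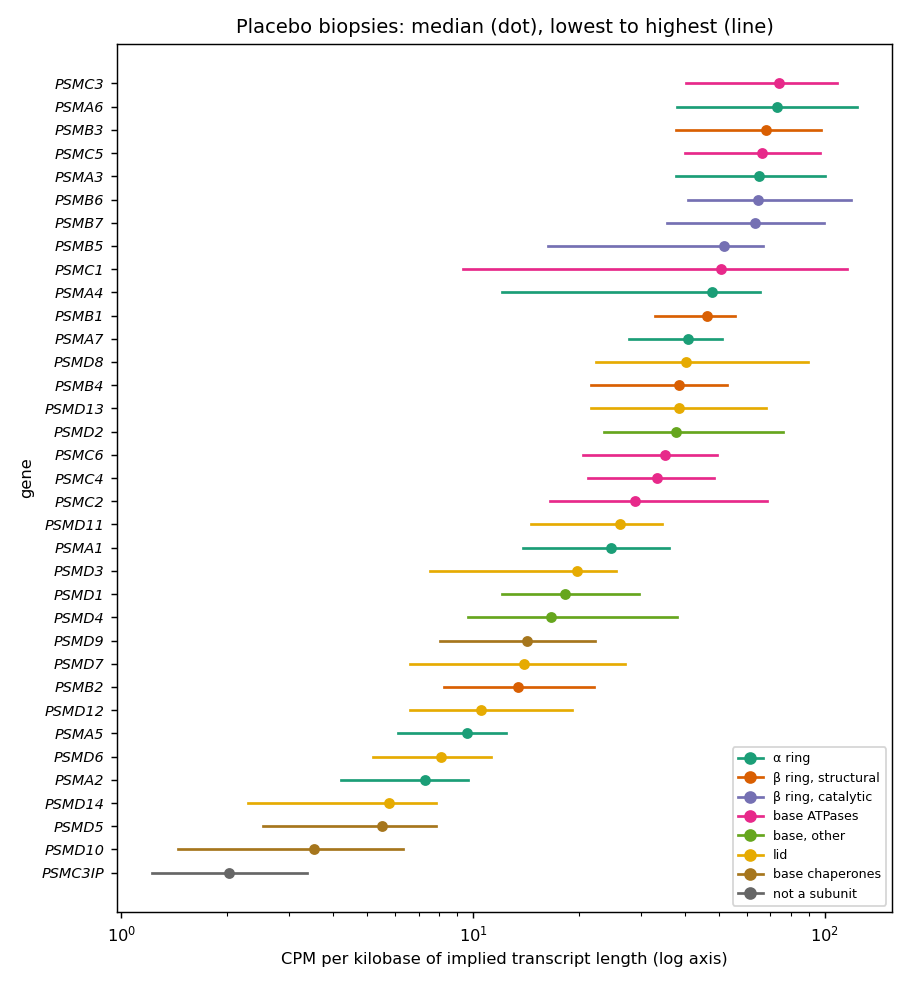
Level of each of the 35 genes in the 81 placebo biopsies, as CPM per kilobase of implied transcript length on a log axis, with a dot for the median, a line from the lowest to the highest biopsy, and colour for the position in the proteasome. PSMC3 has the highest median (74.2) and PSMC3IP the lowest (2.03), and the 3 catalytic subunits lie together near the top.

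Time-matched wIFN-α and placebo biopsies were then compared to ask which constitutive subunits differed during treatment. Before treatment no member passed an adjusted p of 0.05 (edgeR quasi-likelihood test with Benjamini-Hochberg adjustment over all genes). None did at an unadjusted p under 0.05 either, while 130 of the 14963 genes tested did so, and DESeq2 and the test without the biopsies rich in skeletal muscle called no member too. During treatment 17, 9, 18, 14 and 13 of the 35 members passed at weeks 0, 3, 7, 11 and 15. Of all genes tested, 34.6%, 19.4%, 46.6%, 37.3% and 41.5% passed at these weeks, so the members' share was close to that of all genes from week 7 on. In bulk tissue such a difference cannot be told apart from a change in the share of cells of 1 type, as fewer cells and less RNA per cell look alike.

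The members that passed were mostly higher with wIFN-α: 13 higher and 4 lower at week 0, 8 and 1 at week 3, 13 and 5 at week 7, 11 and 3 at week 11, and 10 and 3 at week 15. Among all genes, the shares higher were 18.4%, 11.8%, 23.6%, 20.2% and 22.3% at these weeks, and the shares lower were 16.2%, 7.6%, 23%, 17.2% and 19.2%. The sizes were modest outside the α ring. The median log2 fold change of the members was 0.06, 0.05, 0.09, 0.11 and 0.09, against -0.01, -0.04, -0.03, -0.03 and -0.01 for all genes. Fold changes above 1.5 were reached by 4, 2, 3, 3 and 2 members, all higher, against 10.3%, 7.24%, 11.4%, 12.6% and 13.4% of all genes higher at these weeks. Shares of all genes past that fold were 8.15%, 3.54%, 10.1%, 7.98% and 8.83% lower, and 18.5%, 10.8%, 21.6%, 20.5% and 22.3% in either direction. Over the 5 treatment weeks, 8 members passed every time, 5 at 4 weeks, 2 at 2 weeks and 7 at 1 week, and 13 never passed. Of the 14528 genes tested at all these weeks, 12.5% passed every time, 10.4% at 4 weeks, 11.2% at 3, 12.8% at 2 and 17.6% at 1 week, and 35.6% never passed. A scaling by library size alone moved the median log2 fold change of all genes by -0.18 at week 0 and -0.10 at week 7. It ended the week 0 calls of PSMA4, PSMA6, PSMB3, PSMB4, PSMC5, PSMD3, PSMD12 and PSMD13 and added PSMD6 and PSMD7 as lower, while no call changed its sign. With it the split of higher to lower members became 5 to 6 at week 0, 7 to 1 at week 3, 10 to 9 at week 7, 10 to 5 at week 11 and 8 to 5 at week 15. Of all genes, 6120 of 14700, 2659 of 15006, 7513 of 14868, 5722 of 14966 and 6357 of 14943 passed with this scaling. With the animal as a block and the week -3 effect subtracted, 8 higher and 3 lower members passed at week 7, and 6 higher and 2 lower at both weeks 11 and 15. The week -3 biopsies of F1016 and F1018, almost without hepatocyte RNA, were part of this block. Without the biopsies rich in skeletal muscle the same block left 12, 10 and 8 members at these weeks (chosen after seeing the data). Calls described below as lost with the block refer to the block with all biopsies. Of 16232 genes, 4075, 3882 and 4313 passed with the block at weeks 7, 11 and 15. Without the biopsies rich in skeletal muscle 5163, 4984 and 5483 genes did.

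**Figure D2:**
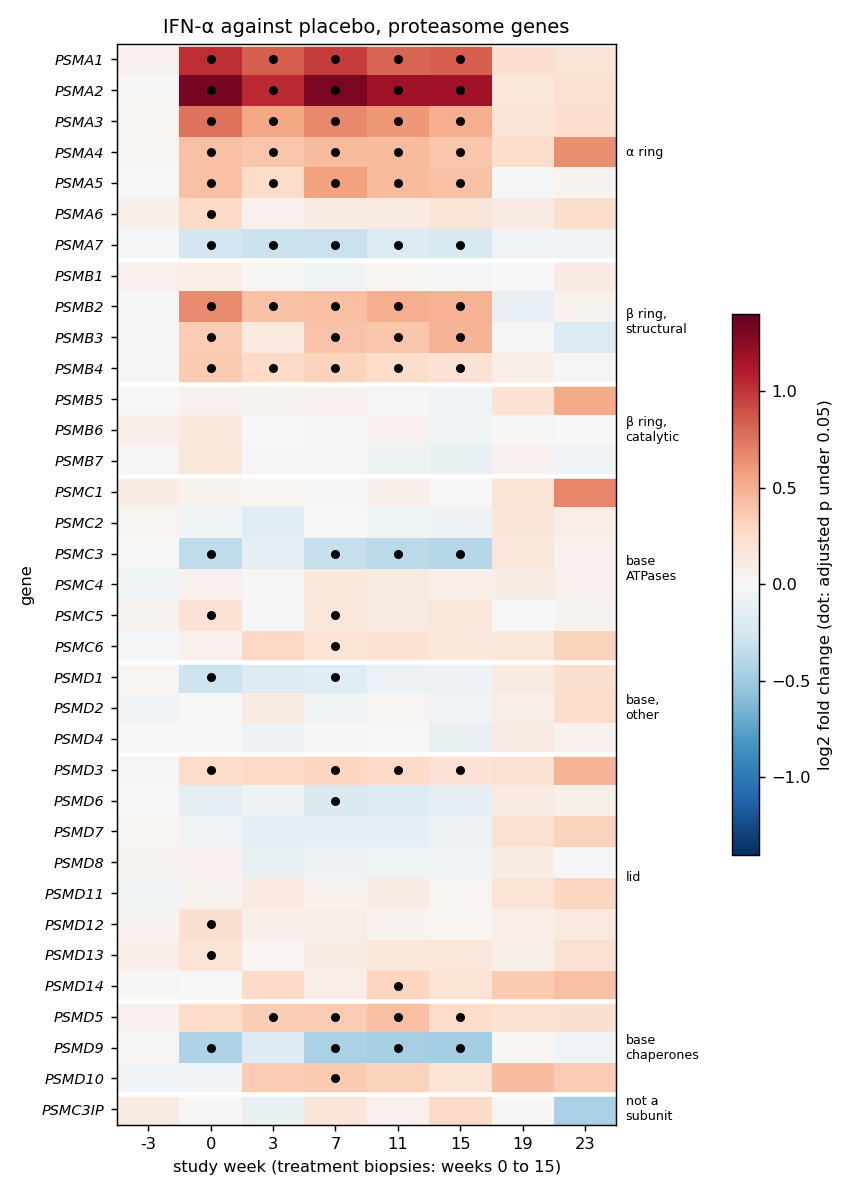
Log2 fold change of wIFN-α against placebo for each of the 35 genes (vertical axis, grouped by position in the proteasome) at each of 8 study weeks (horizontal axis), in red where higher and blue where lower, with a dot where the adjusted p of edgeR was under 0.05. The dots gather in the α ring and the structural β subunits at weeks 0 to 15, and there are none at weeks -3, 19 and 23.

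The α ring held the largest differences. Of its 7 genes 6, 5, 5, 5 and 5 were higher at weeks 0, 3, 7, 11 and 15 and 1, PSMA7, was lower at each of them, with a median log2 fold change between 0.39 and 0.56. PSMA2 was the most changed member at every treatment week. Its level at week 0 was 41.4 to 63.7 CPM (median 54.7) in the 12 placebo biopsies and 107.1 to 170.4 CPM (median 137) in the 11 wIFN-α biopsies. The groups did not overlap, and the log2 fold change was 1.33 (SE 0.08, adjusted p = 2.43e-12, edgeR). At week 7 the levels were 49.5 to 65.3 CPM (median 58.7) with placebo and 119 to 169 CPM (median 145) with wIFN-α. At week 11 they were 46.1 to 73.6 CPM (median 58.8) and 115 to 145 CPM (median 135.0). The groups were separate at both weeks, with log2 fold changes of 1.32 (SE 0.06) and 1.19 (SE 0.07). At week 15 they were 44.4 to 64.1 CPM (median 56.3) and 105.5 to 148 CPM (median 122), a log2 fold change of 1.17 (SE 0.08, adjusted p = 5.97e-10, edgeR). At week 3, placebo biopsies lay between 48.2 and 60.7 CPM (median 55.9) and wIFN-α biopsies between 59.7 and 137 CPM (median 122). The only overlap came from F1013, the biopsy without an interferon response. The log2 fold change there was 1.04 (SE 0.10), and 1.13 without F1013.

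PSMA1 and PSMA3, the next members by size, were also higher at every treatment week. For PSMA1, week 0 levels were 43.1 to 58.3 CPM (median 45.8) with placebo and 77.4 to 125 CPM (median 101.4) with wIFN-α. At week 15 they were 40.6 to 63.0 CPM (median 54.5) and 80.6 to 116 CPM (median 95.6). No wIFN-α biopsy overlapped the placebo range at any treatment week, F1013 included. The log2 fold change was 1.04 (SE 0.08) at week 0, then 0.84, 0.98 and 0.81, and 0.84 (SE 0.09, adjusted p = 3.63e-07, edgeR) at week 15. For PSMA3, week 0 levels were 47.4 to 72.9 CPM (median 57.5) against 89.1 to 116 CPM (median 98.3), and week 15 levels were 52.6 to 81.6 CPM (median 69.9) against 76.8 to 118 CPM (median 96.7). Its groups were separate at weeks 0, 7 and 11, while 1 of the 8 wIFN-α biopsies fell inside the placebo range at week 15. Log2 fold changes of PSMA3 were 0.76 (SE 0.08) at week 0 and 0.51 (SE 0.10, adjusted p = 0.00039, edgeR) at week 15. At week 3 PSMA1 was at 40.2 to 59.5 CPM (median 47.2) with placebo and 62.2 to 105.3 CPM (median 89.1) with wIFN-α, at week 7 at 47.5 to 65.2 (median 57.3) and 95.8 to 131 CPM (median 112), and at week 11 at 47.5 to 72.9 (median 55.8) and 87.4 to 112 CPM (median 100.2). PSMA3 was at 55.7 to 81.8 (median 61.8) against 68.6 to 114 CPM (median 96.0) at week 3, and medians at weeks 7 and 11 were 69.4 and 68.4 against 112 and 103 CPM. Without F1013 the week 3 log2 fold changes of PSMA1 and PSMA3 were 0.89 and 0.59.

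Before treatment none of these 3 genes passed the test. Medians of PSMA2, PSMA1 and PSMA3 at week -3 were 49.5, 38.6 and 50.7 CPM with placebo and 47.0, 38.9 and 51.7 CPM with wIFN-α. The highest PSMA3 values of that week, 97.3 and 94.6 CPM, came from F1016 and F1018, the biopsies almost without hepatocyte RNA.

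PSMA4, whose tail is central to the closed gate, and PSMA5 were higher at all 5 treatment weeks by smaller amounts, with log2 fold changes of 0.39 to 0.45 and of 0.26 to 0.56. With the animal as a block, PSMA4 did not pass at weeks 3, 11 and 15, nor PSMA5 at week 3. PSMA5 also missed at week 3 when F1018, F1020, M1002 or M1003 was left out, with an adjusted p of up to 0.0717 over all alternatives (edgeR). PSMA6 passed at week 0 alone (0.27, SE 0.06, adjusted p = 0.00169, edgeR), not with the block, and ranged from 0.06 to 0.17 at the later treatment weeks.

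PSMA7 went the other way. Its medians at week -3 were 79.5 CPM with placebo and 72.4 CPM with wIFN-α. Its levels at week 0 were 62.7 to 89.5 CPM (median 71.5) with placebo and 50.2 to 69.3 CPM (median 61.5) with wIFN-α, so the groups overlapped but 6 of 11 wIFN-α biopsies lay below every placebo biopsy. The log2 fold change was -0.26 (SE 0.06, adjusted p = 0.00213, edgeR) at week 0, -0.30 at week 3, -0.31 at week 7, -0.19 at week 11 and -0.21 (SE 0.07, adjusted p = 0.0168, edgeR) at week 15. Placebo medians at weeks 3, 7, 11 and 15 were 79.0, 73.1, 69.1 and 67.2 CPM, and those of wIFN-α were 64.8, 59.8, 59.3 and 56.1 CPM. With the animal as a block the adjusted p was 0.136 at week 11 and 0.0602 at week 15. Without F1013, F1018 or M1002 the week 11 difference also missed the threshold. At week 3 the log2 fold change was -0.33 without F1013. PSMA7 was below the animal's own week -3 level in all wIFN-α animals at weeks 3, 7, 11 and 15, and in 5 of the 9 placebo animals at week 15, or 4 of 8 without F1016.

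**Figure D3:**
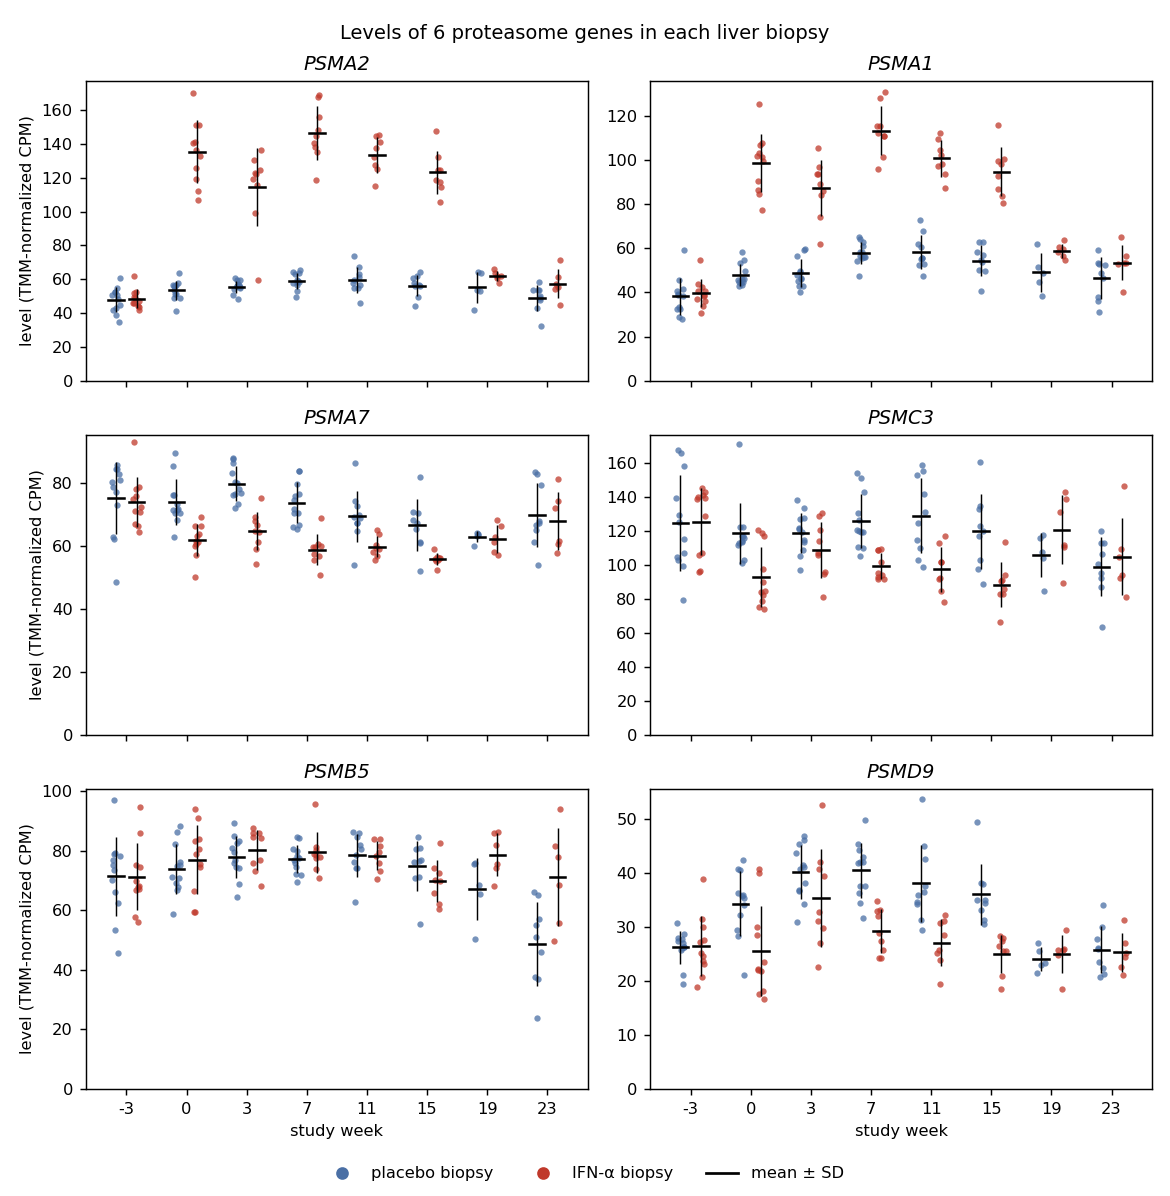
Level in TMM-normalized CPM of PSMA2, PSMA1, PSMA7, PSMC3, PSMB5 and PSMD9 in each biopsy (points) at each study week, placebo in blue and wIFN-α in red, with the mean and SD in black. PSMA1 separates at weeks 0 to 15 and PSMA2 at the same weeks apart from 1 biopsy at week 3 (F1013, 59.65), PSMA7, PSMC3 and PSMD9 are lower with wIFN-α, and the PSMB5 groups overlap throughout, with lower placebo points at week 23 (lowest 23.7).

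Of the 4 structural β subunits, 3, 2, 3, 3 and 3 were higher at weeks 0, 3, 7, 11 and 15, and none lower, with median log2 fold changes of 0.20 to 0.36. PSMB2 was higher at all 5 weeks. Its levels at week 0 were 30.7 to 48.2 CPM (median 34.8) with placebo against 43.5 to 83.0 CPM (median 56.2) with wIFN-α, a log2 fold change of 0.66 (SE 0.10, adjusted p = 1.33e-05, edgeR). At week 15 its range was 29.5 to 51.7 CPM (median 40.9) against 46.7 to 69.1 CPM (median 53.6), a log2 fold change of 0.49 (SE 0.10). The ranges overlapped at both times. PSMB3 was higher at weeks 0, 7, 11 and 15 and measured 0.14 (adjusted p = 0.181, edgeR) at week 3. At week 15 it was 39.7 to 57 CPM (median 46.4) with placebo and 55.8 to 69.2 CPM (median 61.8) with wIFN-α, a log2 fold change of 0.48 (SE 0.07, adjusted p = 5.27e-05, edgeR), and at week 7 its groups were separate. PSMB4 was higher at all 5 weeks with log2 fold changes of 0.20 to 0.37. Its week 15 call (adjusted p = 0.0441, edgeR) was lost under 8 of 11 alternatives, the block and DESeq2 among them, and its week 11 call was lost with the block, with library-size scaling and without F1020 or M1002. Without F1013 the week 3 log2 fold changes of PSMB2 and PSMB4 were 0.44 and 0.28, and both still passed. PSMB1, the member with the smallest spread between placebo biopsies, measured -0.04 to 0.09 with adjusted p-values of 0.182 to 0.924 (edgeR).

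The catalytic subunits PSMB5, PSMB6 and PSMB7 did not pass at any treatment week with edgeR. At week 15, PSMB5, the chymotrypsin-like subunit, was at 55.6 to 84.8 CPM (median 76.7) with placebo and 60.5 to 82.6 CPM (median 70.0) with wIFN-α. PSMB6, the caspase-like subunit, was at 41.6 to 64.5 CPM (median 51.8) and 44.7 to 54.3 CPM (median 47.8). PSMB7, the trypsin-like subunit, was at 83.9 to 121 CPM (median 107) and 87.2 to 112 CPM (median 96.0). The groups overlapped for all 3 at every week. Log2 fold changes over the treatment weeks were -0.06 to 0.06 for PSMB5, -0.06 to 0.15 for PSMB6 and -0.09 to 0.16 for PSMB7, with standard errors of 0.05 to 0.08. Their week -3 medians were 74.4, 60.3 and 113 CPM with placebo and 68.4, 59.1 and 113 CPM with wIFN-α. Medians at weeks 0, 3, 7 and 11 were 73.1, 78.3, 77.4 and 79.6 CPM with placebo and 78.9, 84.4, 78.5 and 78.9 CPM with wIFN-α for PSMB5. They were 54.4, 55.0, 55.8 and 53.7 CPM against 62.2, 57.1, 54.7 and 54.6 CPM for PSMB6, and 113, 114, 115 and 114 CPM against 125, 113, 112 and 105.2 CPM for PSMB7. PSMB7 was near the threshold at week 0 (0.16, adjusted p = 0.0672, edgeR) and passed there with DESeq2 (adjusted p = 0.0301) and with all weeks in 1 model and the lane as a covariate (adjusted p = 0.0383, edgeR). With scaling by library size alone it passed as lower at week 15 (-0.17, adjusted p = 0.0139, edgeR).

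Their interferon-inducible counterparts were higher at every treatment week, so the ratio of each replacement to the constitutive subunit differed between groups. Ratios are given per kilobase and as a description, with no test. At week 15 the PSMB8 to PSMB5 ratio was 0.375 ± 0.219 (SD, n = 9; 0.128 to 0.731) with placebo and 2.11 ± 0.497 (SD, n = 8; 1.4 to 3.05) with wIFN-α. The PSMB10 to PSMB7 ratio was 0.222 ± 0.0626 and 1.17 ± 0.263, and the PSMB9 to PSMB6 ratio was 0.0771 ± 0.0416 and 0.576 ± 0.170. None of these ranges overlapped at week 15. At week 0, hours after the first dose, the PSMB8 to PSMB5 ratio was already 1.78 ± 0.365 (SD, n = 11) against 0.637 ± 0.397 (SD, n = 12). The ranges of this pair overlapped at week 0, from 1.18 up in the wIFN-α and up to 1.5 in the placebo group, and those of PSMB9 to PSMB6 overlapped too (from 0.217 against up to 0.284). At week 3 F1013 lay inside the placebo range for all 3 pairs, at 0.277, 0.0458 and 0.188. The PSMB8 to PSMB5 ratio at week 3 was 1.36 ± 0.434 with it and 1.49 ± 0.168 (SD, n = 8) without it, against 0.516 ± 0.231 with placebo, and without it no pair overlapped. The ranges of all 3 pairs were separate at weeks 7 and 11. The ratio was 0.443 ± 0.202 against 0.488 ± 0.430 at week 19 and 0.445 ± 0.320 against 0.736 ± 0.526 at week 23. In the placebo group, M1008 had the highest PSMB8 to PSMB5 ratio at weeks 0, 3, 15, 19 and 23, up to 1.78.

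**Figure D4:**
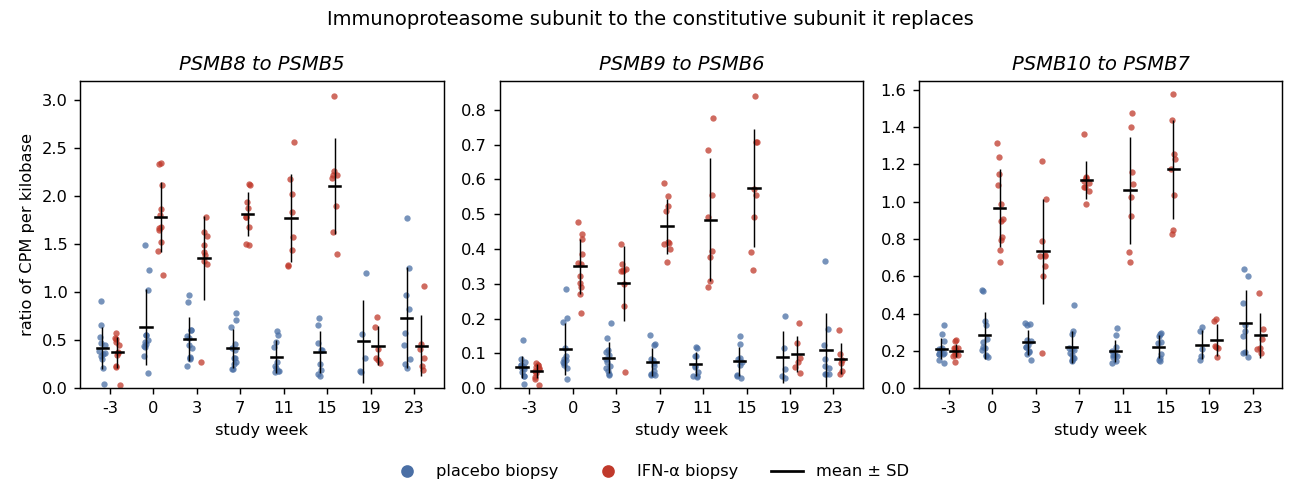
Ratio of CPM per kilobase of each immunoproteasome subunit to the constitutive catalytic subunit it replaces, in each biopsy (points; placebo blue, wIFN-α red) with mean and SD in black, at 8 study weeks. Mean wIFN-α ratios are above placebo at weeks 0 to 15 (PSMB8 to PSMB5 at week 15: 2.11 against 0.375), with no overlap at weeks 7, 11 and 15, and the groups overlap before and after treatment.

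Among the 6 ATPases of the base, 1 was higher and 1 lower at week 0, 2 higher and 1 lower at week 7, 1 lower at weeks 11 and 15, and none passed at week 3. The lower gene was PSMC3 each time. Medians at week -3 were 120.5 and 139 CPM in placebo and wIFN-α biopsies. PSMC3 levels at week 0 were 101.1 to 171 CPM (median 115) with placebo and 74.2 to 120.5 CPM (median 84.6) with wIFN-α. At week 15 they were 88.7 to 161 CPM (median 120.3) and 66.7 to 114 CPM (median 88.4). The groups overlapped, with 4 of 8 wIFN-α biopsies below every placebo biopsy at week 15. Log2 fold changes of PSMC3 were -0.35 (SE 0.10, adjusted p = 0.00738, edgeR), -0.13 (adjusted p = 0.334), -0.33, -0.38 and -0.40 (SE 0.11, adjusted p = 0.00778). At week 3 the log2 fold change was -0.11 (adjusted p = 0.43, edgeR) without F1013. Placebo medians at weeks 3, 7 and 11 were 120.4, 121 and 128 CPM against 107, 95.6 and 97.1 CPM. The other calls were small and less stable: PSMC5 was higher at weeks 0 and 7 (0.20 and 0.16) and PSMC6 at week 7 (0.19). All 3 of these calls were lost with library-size scaling and the block, and in 5, 10 and 9 of the refits that left out 1 animal. PSMC6 measured 0.29 at week 3 (adjusted p = 0.0571, edgeR) and passed there under 6 alternatives, DESeq2 and the block among them. PSMC1, PSMC2 and PSMC4 did not pass at any treatment week (edgeR), with log2 fold changes from -0.16 to 0.16. PSMC4 passed at week 7 without F1022 and at week 11 without F1021.

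Of the other base subunits, the scaffold PSMD1 was lower at week 0 (-0.29, SE 0.09, adjusted p = 0.0176, edgeR) and week 7 (-0.17, SE 0.05, adjusted p = 0.0088), the second of which was lost with the block and with all weeks in 1 model. The scaffold PSMD2 and the ubiquitin receptor PSMD4 did not pass. PSMD4 levels at week 15 were 40.1 to 62.4 CPM (median 50.8) with placebo and 43.3 to 52.5 CPM (median 45.9) with wIFN-α. Its medians at weeks 0, 3, 7 and 11 were 47.1, 50.6, 51.9 and 53.9 CPM against 45.1, 51.6, 53.1 and 53.1 CPM, and its log2 fold changes lay between -0.10 and -0.003. At week -3 its highest values, 115 CPM in F1016 and 104 CPM in F1018, were those of the biopsies almost without hepatocyte RNA, against medians of 44.6 and 44.0 CPM.

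In the lid, 3 of 8 genes were higher at week 0, none passed at week 3, 1 was higher and 1 lower at week 7, 2 were higher at week 11 and 1 at week 15. PSMD3 accounted for 4 of these calls, with log2 fold changes of 0.26, 0.30, 0.27 and 0.20 at weeks 0, 7, 11 and 15 and of 0.28 (adjusted p = 0.0573, edgeR) at week 3, where 7 alternatives, DESeq2 among them, did call it. Its calls at weeks 7, 11 and 15 were lost with the block, and that of week 15 was also lost when any of 12 animals was left out. PSMD12 and PSMD13 were higher at week 0 alone, with adjusted p-values of 0.043 and 0.0476 (edgeR) that 5 and 7 of the refits without 1 animal took past the threshold. PSMD6 was lower at week 7 (-0.20, adjusted p = 0.0215, edgeR; lost with the block). PSMD14, the deubiquitinase of the lid, passed at week 11 (0.30, SE 0.07, adjusted p = 0.00229, edgeR), with 42.0 to 60.0 CPM (median 47.2) in placebo and 54.8 to 67.1 CPM (median 58.4) in wIFN-α biopsies. With the block its adjusted p was 0.329, and with all weeks in 1 model it was 0.0526 (edgeR). Its medians at week -3 were 40.4 and 41.5 CPM. Its log2 fold changes at weeks 0, 3, 7 and 15 were -0.01, 0.27, 0.09 and 0.19, and its medians 44.8, 40.4, 50.1 and 45.2 CPM against 41.8, 49.1, 52.3 and 53.5 CPM. PSMD7, PSMD8 and PSMD11 did not pass at any treatment week (edgeR, each week in its own model). With library-size scaling PSMD7 passed as lower at weeks 0, 7, 11 and 15, and PSMD8 at week 7. PSMD7 also passed at week 7 without F1013.

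The 3 chaperones of the base, which guide the assembly of the ATPase ring and leave before the proteasome is complete, did not move together. PSMD9 was lower at weeks 0, 7, 11 and 15, PSMD5 was higher at weeks 3, 7, 11 and 15, and PSMD10, also known as gankyrin, was higher at week 7 alone (0.37, adjusted p = 0.0217, edgeR), a call lost with library-size scaling and with the block. PSMD9 levels at week 15 were 30.7 to 49.5 CPM (median 35.0) with placebo and 18.4 to 28.3 CPM (median 26.0) with wIFN-α, with no overlap. It was the only member with every wIFN-α biopsy below every placebo biopsy at any week. The share of all genes with separate groups was not counted, here or for the members above. Its log2 fold change was -0.43 (SE 0.15, adjusted p = 0.0261, edgeR) at week 0, -0.18 (adjusted p = 0.312) at week 3, -0.46 and -0.47 at weeks 7 and 11, and -0.49 (SE 0.10, adjusted p = 0.00081) at week 15. The week 0 call was lost without M1003 (adjusted p = 0.0525, edgeR). PSMD9 medians were 26.7 and 25.2 CPM at week -3, and at weeks 0, 3, 7 and 11 they were 35.6, 40.9, 42.0 and 36.3 CPM against 22.2, 32.8, 28.8 and 27.2 CPM. PSMD5 had log2 fold changes of 0.25 to 0.43, and its calls at weeks 3, 7, 11 and 15 were lost with the block. The week 3 call of PSMD5 was lost in 12 of 21 refits without 1 animal, F1013 among them (adjusted p = 0.0567, edgeR). Without F1013 the week 3 log2 fold change of PSMD9 was -0.22.

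PSMC3IP, the gene that is not a subunit, did not pass at any treatment week (edgeR), with log2 fold changes from -0.10 to 0.27. It passed at week 15 with the deepest run only, with M1004 included, and without F1017 or M1008.

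Summed over the 34 subunits and base chaperones, the level was 2423 ± 136 CPM (SD, n = 12) with placebo and 2731 ± 196 CPM (SD, n = 11) with wIFN-α at week 0, and 2508 ± 264 (n = 9) and 2627 ± 188 (n = 8) at week 15. The α ring differed most. Its sum was 398.1 ± 29.1 against 605.2 ± 54.2 CPM at week 0, and 412.4 ± 46.4 against 567.6 ± 50.4 CPM at week 15, with ranges that did not overlap at either week. Sums of the structural β subunits at week 15 were 278.3 ± 34 against 314.2 ± 19 CPM. Those of the catalytic subunits were 234.2 ± 25.1 against 216.1 ± 17.7, of the ATPases 521.0 ± 62.6 against 495.8 ± 42.5, and of the lid 626.9 ± 59.0 against 629.6 ± 46.0 CPM. Apart from the α ring, all of these week 15 ranges overlapped. At week -3 the sum over the 34 genes was 2276 ± 259 CPM (SD, n = 11) in placebo and 2289 ± 82.0 CPM (SD, n = 10) in wIFN-α biopsies without F1016 and F1018, and 2386 ± 453 and 2410 ± 407 CPM with them.

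Each animal was also set beside its own week -3 biopsy. PSMA2 was above that level in all 11 wIFN-α animals at week 0, by a median log2 change of 1.419 (1.17 to 1.86), and in 9 of 12 placebo animals by a median of 0.09. At week 15 it was above in 8 of 8 wIFN-α animals, by 1.00 to 1.74, and in 7 of 9 placebo animals, by a median of 0.29 (-0.30 to 0.67). PSMC3 was below its week -3 level in all 8 wIFN-α animals at week 15 (median log2 change -0.47) and in 5 of 9 placebo animals (median -0.08). For PSMD9, the placebo group moved: it was above the week -3 level in 12 of 12, 12 of 12, 12 of 12, 10 of 10 and 9 of 9 placebo animals at weeks 0, 3, 7, 11 and 15, by medians of 0.33, 0.56, 0.61, 0.58 and 0.40. In wIFN-α animals PSMD9 was above that level in 4 of 11, 6 of 9, 5 of 9, 4 of 8 and 4 of 8. PSMA1 and PSMA3 also moved with placebo. Placebo animals above that level numbered 11 of 12, 10 of 12, 11 of 12, 10 of 10 and 8 of 9 for PSMA1. The medians were 0.295, 0.511, 0.59, 0.726 and 0.616. For PSMA3 they numbered 9 of 12, 9 of 12, 11 of 12, 9 of 10 and 8 of 9. Every wIFN-α animal was above it for both genes at these weeks. The changes of F1016 and F1018 in these counts are measured from biopsies almost without hepatocyte RNA. Without both animals PSMA2 was above its week -3 level in 10 of 10 wIFN-α and 8 of 11 placebo animals at week 0 and in 7 of 7 and 6 of 8 at week 15. PSMC3 was then below it in 7 of 7 wIFN-α and 5 of 8 placebo animals at week 15. PSMD9 was above it in 11 of 11, 11 of 11, 11 of 11, 9 of 9 and 8 of 8 placebo animals at weeks 0, 3, 7, 11 and 15, and in 3 of 10, 5 of 8, 4 of 8, 3 of 7 and 3 of 7 wIFN-α animals. Placebo animals then numbered 11 of 11, 10 of 11, 11 of 11, 9 of 9 and 7 of 8 for PSMA1. For PSMA3 they numbered 9 of 11, 9 of 11, 11 of 11, 9 of 9 and 8 of 8.

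Each biopsy was placed by the lane number of its deepest run, although some had runs under several lane numbers. All 7 lane numbers held both groups, and an animal could enter a lane with biopsies of several weeks. Within lanes, pooled over the treatment weeks, the mean log2 difference ran from 1.03 to 1.35 for PSMA2, 0.79 to 0.95 for PSMA1, 0.52 to 0.66 for PSMA3, -0.33 to -0.21 for PSMA7, -0.43 to -0.22 for PSMC3 and -0.54 to -0.33 for PSMD9. Each had the same sign in 7 of 7 lanes. The pooled values were 1.19, 0.89, 0.61, -0.27, -0.33 and -0.42. PSMB5, PSMB6 and PSMB7 ran from -0.03 to 0.18, -0.02 to 0.08 and -0.09 to 0.07 and were positive in 4, 5 and 2 of 7 lanes.

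The effect at week 15 was compared with the mean effect of weeks 0 and 3, to ask whether high dose and low dose effects differed. No member passed in this contrast, where 2.26% of 16232 genes did (1.93% with a higher and 0.327% with a lower effect at week 15, edgeR), and DESeq2 called none either. At an unadjusted p under 0.05 there was 1 member, PSMB7 (-0.18, SE 0.09, p = 0.0458, edgeR quasi-likelihood test). Differences ranged from -0.21 for PSMD9 to 0.29 for PSMC3IP. The dose and the time on treatment cannot be told apart in this contrast.

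After treatment, at weeks 19 and 23, no member passed (edgeR), and the lowest adjusted p was 0.32 and 0.256. At an unadjusted p under 0.05 there were 6 and 10 members, against 1859 and 2416 of all genes, and DESeq2 called no member. PSMA2 was at 41.8 to 64.5 CPM (median 53.5, n = 5) with placebo and 57.7 to 66.4 CPM (median 62.1, n = 6) with wIFN-α at week 19, and at 32.2 to 58.3 CPM (median 50.3) and 44.9 to 71.2 CPM (median 56.5) at week 23. Its log2 fold changes of 0.14 (SE 0.11) and 0.21 (SE 0.12) had adjusted p-values of 0.568 and 0.37 (edgeR). Those of PSMA1 were 0.24 and 0.18, of PSMA3 0.18 and 0.24, of PSMA7 -0.04 and -0.06, of PSMC3 0.16 and 0.06 and of PSMD9 0.03 and -0.05. At week 19 the log2 fold changes were 0.205 for PSMB5, 0.016 for PSMB6, 0.059 for PSMB7 and 0.114 for PSMD4. PSMD14 measured 0.37 there (SE 0.14, adjusted p = 0.349, edgeR). Medians at week 23 were 48.9 and 53.3 CPM for PSMA1, 56.2 and 69.4 for PSMA3, 67.4 and 66.8 for PSMA7, 100.9 and 99.5 for PSMC3 and 25.9 and 24.9 for PSMD9 in placebo and wIFN-α biopsies. They were 53.0 and 54.2 for PSMB6, 104.0 and 98.0 for PSMB7, 45.1 and 49.7 for PSMD4 and 35.7 and 50.5 CPM for PSMD14. At week 23, 29 of 35 members had a positive log2 fold change, against 43.5% of all genes, with a median of 0.14. In a single model of all weeks, which shares the spread over weeks, 6 members passed as higher at week 23: PSMA4, PSMB5, PSMC1, PSMC6, PSMD3 and PSMD11, and 5 passed with the lane as a covariate. Of all genes, 3.83% and 2.41% passed in these models at week 23. Neither model pairs the biopsies of the same animal. With the animal as a block and the week -3 effect subtracted, no member passed at week 23, where 65 of 16232 genes did (edgeR).

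The week 15 effect differed from that of week 23 for 11 members, 6 with a higher and 5 with a lower value at week 15, where 14.6% and 10.3% of all genes passed in these directions (edgeR, all weeks in 1 model). Higher at week 15 were PSMA2 by 0.92 (SE 0.14, adjusted p = 1.93e-08), PSMB3 by 0.62 (adjusted p = 0.000183), PSMA1 by 0.62 (adjusted p = 0.000623), PSMC3IP by 0.68 (adjusted p = 0.00402), PSMA5 by 0.31 (adjusted p = 0.0365) and PSMB2 by 0.40 (adjusted p = 0.0445). These had been higher on treatment, apart from PSMC3IP, whose means were 2.34 and 3.22 CPM with placebo and 2.75 and 2.39 CPM with wIFN-α at weeks 15 and 23. Lower at week 15 were PSMB5 (-0.62, adjusted p = 0.000832), PSMC1 (-0.72, adjusted p = 0.0145), PSMC3 (-0.50, adjusted p = 0.0183), PSMD11 (-0.31, adjusted p = 0.0268) and PSMD9 (-0.48, adjusted p = 0.0442). Most animals were sampled at both weeks. Placebo animal F1017 and wIFN-α animals F1020 and M1002 were in the week 15 groups but not in those of week 23. Placebo animal M1009 was in the week 23 group but not in that of week 15. With the animal as a block, 14 members passed, 6 higher and 8 lower at week 15: the same 11 and, as lower, PSMD1 (-0.33, adjusted p = 0.0483), PSMD2 (-0.34, adjusted p = 0.0361) and PSMD7 (-0.46, adjusted p = 0.0171, edgeR). Without the biopsies over 5% skeletal muscle reads the same 14 members passed. Of all genes, 5005 of 16232 passed with the block and 5062 of 16179 without those biopsies.

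For PSMB5, PSMC1, PSMD11 and PSMD9 it was the placebo group that differed most between these weeks. The mean of PSMB5 went from 74.9 CPM at week 15 to 48.8 CPM at week 23 with placebo and from 69.8 to 71.3 CPM with wIFN-α. For PSMC1, the means were 84.9 and 48.3 CPM with placebo and 82.4 and 78.6 CPM with wIFN-α. For PSMD11, a lid subunit that ties the regulatory particle to the core, they were 142 and 98.1 CPM with placebo and 141 and 123 CPM with wIFN-α. For PSMD9, they were 36.1 and 25.8 CPM with placebo and 25.1 and 25.3 CPM with wIFN-α. For PSMC3, both groups moved, from 119.9 to 99.1 CPM with placebo and from 88.6 to 104.8 CPM with wIFN-α. Single biopsies at week 23 ran from 23.7 to 66.3 CPM (median 51.2) with placebo and 49.8 to 94.0 CPM (median 73.3) with wIFN-α for PSMB5, and from 14.9 to 78.2 CPM (median 48.7) and 61.9 to 96.1 CPM (median 80.3) for PSMC1. The ranges overlapped. Means at week 23 were below those of week 15 for 30 of 35 members with placebo and 23 of 35 with wIFN-α. The placebo biopsy of M1005 was the lowest of its group for 18 of 35 members at week 23, and its hepatocyte genes summed to 57942 CPM, the lowest of the biopsies with under 5% skeletal muscle reads. Without it 8 members passed, as PSMB2 (adjusted p = 0.0533), PSMC3 (adjusted p = 0.0596) and PSMD11 (adjusted p = 0.0705) did not (edgeR, chosen after seeing the data). Of all genes, 3675 passed without this biopsy and 4047 with it. The wIFN-α biopsy of M1003 was the highest of its group for 28 of 35 members.

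**Figure D5:**
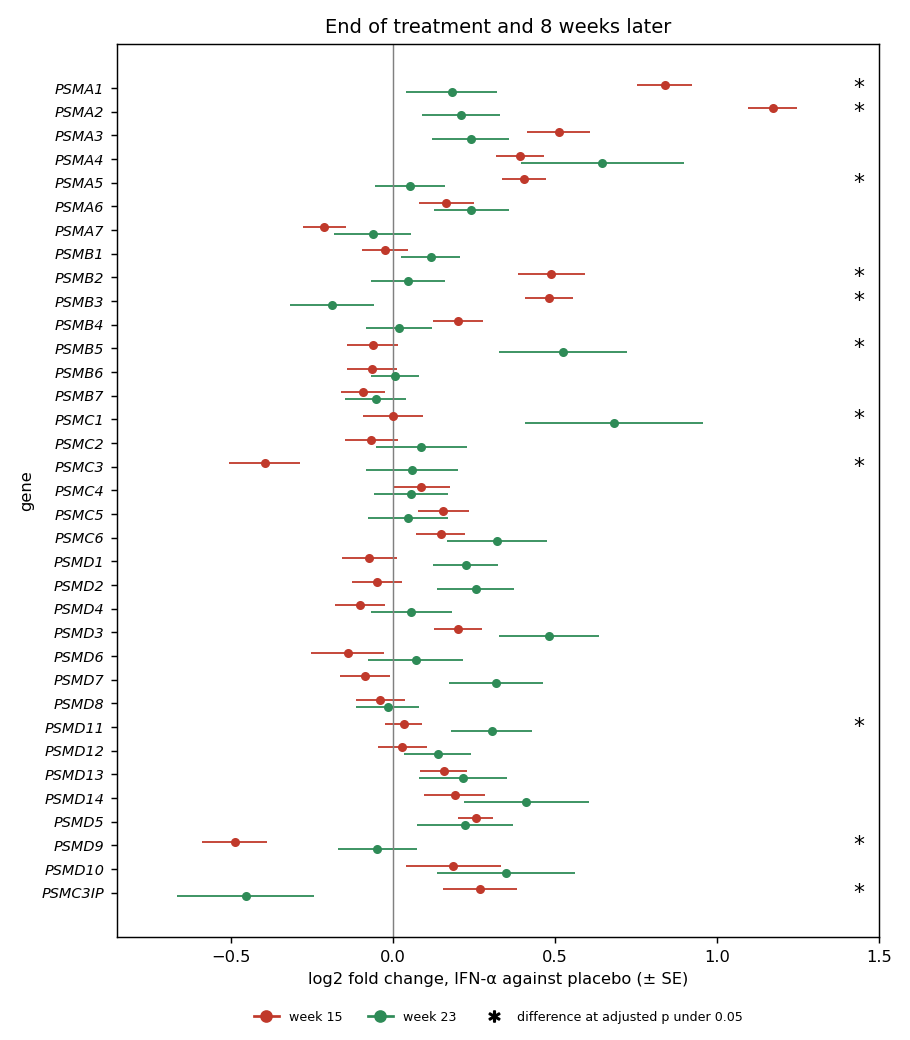
Log2 fold change of wIFN-α against placebo with its SE for each of the 35 genes at week 15 (red, end of treatment) and week 23 (green, after treatment), with a star where both effects differed at an adjusted p under 0.05. The stars mark 11 genes: PSMA1, PSMA2, PSMA5, PSMB2, PSMB3 and PSMC3IP higher at week 15, and PSMB5, PSMC1, PSMC3, PSMD9 and PSMD11 lower.

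Genes that work with the constitutive subunits were counted in lists at weeks 0 and 15. Of the 3 immunoproteasome subunits all were higher at both weeks (median log2 fold change 1.79 and 2.47). Of 6 further assembly factors (POMP, PSMG1 to PSMG4 and PAAF1), 1 was higher and 1 lower at week 0, and 2 were higher and 2 lower at week 15. POMP, which matures the core, was at 54.1 to 78.2 CPM (median 64.1) with placebo and 105.1 to 134 CPM (median 119.5) with wIFN-α at week 0. Its log2 fold change was 0.89 (SE 0.07, adjusted p = 1.05e-10, edgeR) at week 0 and 0.76 at week 15. PAAF1, which holds base ATPases off the core, was lower (-0.46 and -0.54).

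Of 5 activators and inhibitors of the core, 4 were higher at both weeks. PSMF1, an inhibitor protein, went from 44.1 to 61.6 CPM with placebo to 154 to 329 CPM with wIFN-α at week 0, a log2 fold change of 2.07 (SE 0.11, adjusted p = 1.46e-13, edgeR), and measured 1.81 at week 15. The activator subunits PSME1 and PSME2 measured 0.81 and 1.12 at week 0 and 1.00 and 1.4 at week 15, and the activator PSME4 measured 0.44 and 0.48. Of the 6 further genes of the regulatory particle, KIAA0368, which stabilises the whole proteasome, was higher (0.82 and 0.35), and the deubiquitinase USP14 was lower at week 0 (-0.17, adjusted p = 0.0332, edgeR). Of 9 genes of the pathway of NFE2L1, the transcription factor of proteasome genes, 5 and 3 were higher at weeks 0 and 15 and none lower. They included NFE2L1 (0.65 and 0.37) and NGLY1 (0.84 and 0.47), which removes its glycans. DDI2, the protease that cleaves it, measured 0.62 at week 0 and 0.05 (adjusted p = 0.801, edgeR) at week 15.

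Markers of other cells moved over the same weeks. Of 12 T and NK cell genes, 3, 3, 5, 9 and 11 were higher at weeks 0, 3, 7, 11 and 15, and their sum at week 15 was 48.1 to 82.8 CPM with placebo and 118 to 256 CPM with wIFN-α. At week 0 the sums were 59.4 to 127 CPM (mean 78.9) with placebo and 54.1 to 154 CPM (mean 118) with wIFN-α, and overlapped. Of 12 proliferation genes, 7 were lower at week 0 and 9 higher at week 15. Of 8 B and plasma cell genes tested 4 were higher at week 15, of 10 myeloid genes 4 were higher and 1 lower, and of 12 hepatocyte genes 2 were higher. No skeletal muscle gene passed at any treatment week. The lowest gene median over all biopsies was 0.484 CPM among the T and NK cell genes and 0.116 CPM among the B and plasma cell genes. The part of these cells in the results above was not tested.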

How the data were processed

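Poly(A) RNA of the biopsies was sequenced from libraries made with a kit that does not mark the strand, so overlapping and antisense genes cannot be told apart. According to the submitters' processing notes, the authors used CASAVA, FastQC, Bowtie2, SAMtools and DESeq, and reads were mapped to the authors' woodchuck transcriptome assembly. Versions and a genome build were not given in the sources used here. The deposited tables give for each gene an estimated count, not normalized, and an RPKM value that the authors scaled to gene length and reads per run. Of 3368022 nonzero estimated counts that the authors deposited, 118 were not whole.

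The 203 runs of 164 biopsies were summed per biopsy and rounded. Of 149 biopsies used, 37 had several runs. The 7 biopsies of M1004 and 8 of other weeks were left out. Label weeks 1 to 24 were taken as study weeks 0 to 23, as in the study. The replicates are separate animals. Genes passing filterByExpr were tested with edgeR 4.0.16 (TMM, quasi-likelihood test, R 4.3.3), each week in its own model of wIFN-α against placebo. Differences between weeks were tested in 1 model of all weeks with 16232 genes. A gene passed at a Benjamini-Hochberg adjusted p under 0.05 over all genes. Implied lengths came from the estimated counts and RPKM as deposited, and CPM was TMM-normalized over all 149 biopsies. Depth was at least 12072840 reads per biopsy, and counting error was largest for PSMC3IP, the member with the fewest reads.

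Alternatives were DESeq2 1.42.0, limma-voom (limma 3.58.1), other scalings, no low-count filter, the deepest run only, M1004 included, sex or lane as a covariate, all weeks in 1 model, omission of biopsies over 5% skeletal muscle reads or of single animals, and the animal as a block. Week numbers pair biopsies of the same animal. Over 16232 genes, deviations from the group means correlated with a median r of 0.304 for 450 same-animal pairs, 326 of them over 0.1, against -0.007 for 9201 other pairs. The scripts were tested on counts simulated for the week 15 groups. There edgeR recovered 7 of 67 genes changed 1.25-fold, 23 of 67 changed 1.5-fold and 43 of 66 changed 2-fold, with 6 false calls. Small changes could thus be missed, although far fewer genes were changed there than passed at week 15.

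Values in every group were given for PSMB5, PSMB6, PSMB7, PSMD4, PSMD14 and the 3 members highest and the 3 lowest in log2 fold change at week 15, and other members were given by range, count or their largest change. Lists of the proteasome's assembly factors, activators, ubiquitin supply and cell types were used beside them. The values of 1 listed gene are not reported here. The members and lists were chosen with earlier results of these data known. All 35 symbols were in the RefSeq gene table, which placed them on no chromosome.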

Additional observations from a re-analysis of the deposited data

Results flagged for a closer look

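Among 110 groups of 4 to 10 biopsies, 7 had a single biopsy far from the others by Dixon's criterion at 95%, and chance alone marks about 1 in 20 groups. PSMA2 at week 3 was lowest in the wIFN-α biopsy of F1013 at 59.65 CPM, the biopsy that also lacked the interferon response. PSMA7 at week 19 was lowest in placebo animal F1019 at 59.93 CPM, and PSMD9 at week 15 was highest in placebo animal M1005 at 49.52 CPM. PSMB5 at week 7 was highest in wIFN-α animal M1003 at 95.76 CPM. The other 3 were from placebo animal M1008, lowest for PSMB5 at week 11 (62.76 CPM) and week 15 (55.61 CPM) and for PSMB7 at week 15 (83.91 CPM). The runs of its week 15 biopsy differed with a chi-square per degree of freedom of 136.9, within the range of values between animals. Other pairs of runs of 1 biopsy that share a barcode differed by 1.24 to 2.54. Pairs with different barcodes reached 15.32 (M1002 at week -3) and 31.45 (F1022 at week 19).

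The effect of wIFN-α at the end of treatment differed from that after treatment for 11 of the 35 genes, by the test of the difference in edgeR. Of all genes, 4047 of 16232 (24.9%) passed in this test. The log2 difference was 0.921 for PSMA2, 0.678 for PSMC3IP, 0.622 for PSMB3, 0.617 for PSMA1, 0.397 for PSMB2 and 0.311 for PSMA5. It was -0.718 for PSMC1, -0.623 for PSMB5, -0.496 for PSMC3, -0.483 for PSMD9 and -0.311 for PSMD11.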

How the results depend on the processing

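The direction of every member's call was kept under all alternatives run. Under all alternatives and with each single animal left out, 8 of 17 members stayed past the threshold at week 0, 6 of 9 at week 3, 11 of 18 at week 7, and 8 of 14 and 8 of 13 at weeks 11 and 15. With a fold change above 1.5 required as well, 4, 2, 3, 3 and 2 members passed at weeks 0, 3, 7, 11 and 15. Scaling by library size alone left 11 members at week 0, against 6120 of 14700 genes. With the animal as a replicate block and the effect of week -3 subtracted, 11, 8 and 8 members passed at weeks 7, 11 and 15, against 13 and 7 at weeks 0 and 3. Of 16232 genes, 4075, 3882 and 4313 passed with this block at weeks 7, 11 and 15, and 4142 and 2543 at weeks 0 and 3. In an alternative chosen after seeing the data, the block without biopsies over 5% skeletal muscle reads left 8 members at week 15 and 2 at week 23 (PSMB5 and PSMD3). Of all genes, 5483 and 174 passed there at these weeks. With all weeks in 1 model 6 members passed at week 23, and 5 with the lane as a covariate. No member passed at week 23 with the animal as a replicate block and all biopsies, where 65 of 16232 genes did. Leaving out 1 animal at a time gave 14 to 18 members at week 0 (wIFN-α animals only), 7 to 12 at week 3, 16 to 19 at week 7, 13 to 16 at week 11, 11 to 14 at week 15, and 0 at week 19. At week 23 only placebo animal M1005 was left out, chosen after seeing the data, and no member passed. The number passing in the difference of weeks 15 and 23 was 14 with the block, 14 without the biopsies over 5% skeletal muscle reads, 10 without the low-count filter and 8 without M1005. Of all genes, 5005, 5062, 4078 and 3675 passed in these refits, in the same order. The causes were not tested. Biopsies over 5% skeletal muscle reads occurred at weeks -3, 0 and 3, so leaving them out gave no separate value in the comparisons made within a single later week.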

Other observations

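Genes that supply ubiquitin and carry tagged proteins to the proteasome moved in both directions. Of 12 tested, 4 were higher and 3 lower at week 0, 2 higher at week 3, 4 higher and 5 lower at week 7, 4 higher and 1 lower at week 11, and 4 higher and 3 lower at week 15 (edgeR quasi-likelihood test), with a median log2 fold change of 0.04 at week 0 and -0.04 at week 15. The E1 enzyme UBA1, which activates ubiquitin, measured 0.86 at week 0 and 0.84 at week 15 (adjusted p = 1.2e-08 and 1.14e-06). The polyubiquitin gene UBB measured 0.61 at week 0 and 0.31 at week 15, and the E2 enzyme UBE2D3 0.66 and 0.52. Lower were the shuttle UBQLN2 (-0.31 and -0.40), the E2 enzyme UBE2K (-0.23 and -0.25) and, at week 15, RPS27A (-0.37, adjusted p = 0.00252), which encodes ubiquitin fused to a ribosomal protein. None of the 12 passed at week 23 (edgeR).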
